A study of Gallus gallus with 2 samples.

Results

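TADs of chromosome GGA3, one of the large macrochromosomes of the chicken, were examined in the HD3 cell line. They were taken as every entry for this chromosome in the list of TADs, which gave 225 of the 2389 TADs on 26 chromosomes. HD3 (LSCC-HD3) is an immortal chicken line of the red cell lineage, obtained with a heat-sensitive strain of avian erythroblastosis virus and labelled as erythroblasts. It was cultured at 37 °C in DMEM with fetal bovine and chicken serum. There was 1 group of 2 Hi-C samples, replicate 1 and replicate 2, with no treatment and no other cell type. The authors combined the contacts of the replicates before TAD calling, so every value below belongs to 1 pooled list and carries no replicate error. Comparisons between chromosomes are therefore descriptions without a test. The list holds coordinates without contact numbers. The depth behind a TAD is thus unknown, and the erythroid identity of the cells could not be set against marker genes.

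TADs, or topologically associating domains, are stretches of chromatin whose loci contact each other more often than loci outside. In vertebrate cells they are formed largely by cohesin, which extrudes loops of chromatin until it meets barriers such as bound CTCF, and they confine many contacts between enhancers and promoters. HD3 has a rearranged karyotype, in which GGA3 takes part in translocations with GGA18, at its beginning, and with GGA24, a little further along the chromosome. The list follows the order of the reference assembly, GalGal5, and does not separate the contacts of normal and derivative copies. Positions are counted from 1 in this assembly, the resolution is 1 bin of 50 kb, and no gene annotation of it was used. The authors state a range of γ, which sets the scale of TADs in the calling. The γ of each chromosome is not given, so its part in differences between chromosomes was not tested.

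TADs on GGA3 ran from 100 to 3850 kb, with a median of 250 kb and quartiles at 100 and 450 kb. The mean was 390 ± 445 kb (SD over 225 TADs), above the median because a few TADs were very long. TADs of 100 kb, or 2 bins, were the most frequent and also the smallest in the list, with 63 of the 225 (28.0%). A further 64 (28.4%) spanned 150 to 250 kb, 44 (19.6%) spanned 300 to 450 kb, 33 (14.7%) spanned 500 to 950 kb, and 21 (9.33%) reached at least 1 Mb. Counted by sequence, the order was turned around. TADs of 100 kb held 7.18% of the TAD sequence of GGA3, and those of at least 1 Mb held 34.8%. In order of size, the 38 largest TADs (16.9%) were enough to hold 50% of it, the last of them with 650 kb.

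**Figure D1:**
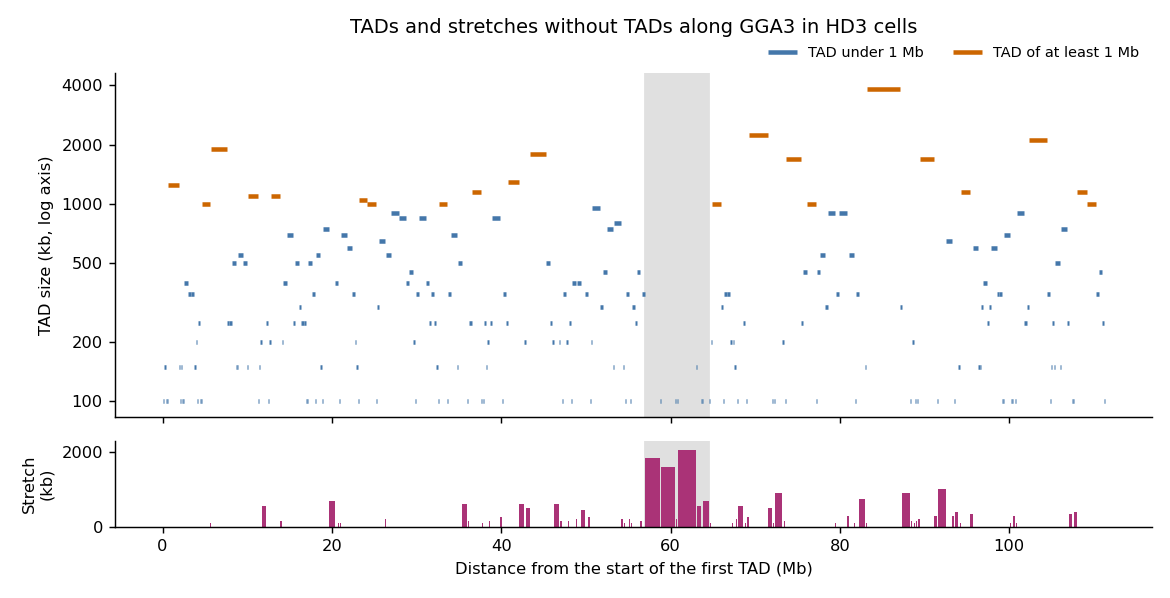
Each horizontal line in the upper panel is 1 TAD of GGA3, drawn over its extent and at its size (kb, log axis), against the distance from the start of the first TAD (Mb). Bars in the lower panel are stretches without TADs (kb), and the grey band marks the region of 7.6 Mb with 6 TADs. The 21 TADs of at least 1 Mb lie on both sides of the band, and the 3 tallest bars lie inside it.

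The size distribution of GGA3 was set beside those of the longer GGA1 and GGA2 and of the whole remaining list. The median of 250 kb was shared with 6 other chromosomes, GGA1 and GGA2 among them, and no chromosome had a higher one. The mean of 390 kb was below the 409 kb of GGA1 and above the 375 kb of GGA2 and the means of all 23 remaining chromosomes, of which GGA11 came closest with 389 kb. The share of TADs of 100 kb (28.0%) was close to the 28.5% on GGA1 and 27.3% on GGA2. TADs of 150 to 250 kb formed 28.4% on GGA3, 29.2% on GGA1 and 28.6% on GGA2. Among the 2164 TADs outside GGA3, with those of GGA1 and GGA2 counted in, they formed 34.9%. At the upper end, 9.33% of the TADs of GGA3 reached 1 Mb, against 6.68% on GGA1, 6.49% on GGA2 and 5.31% of these 2164 TADs. Only GGA11 had a higher share, 12.2%, which rests on 6 of its 49 TADs. This standing depended on the threshold, since 6 TADs of GGA3 measured exactly 1 Mb and 5 more measured 900 or 950 kb. At 500 kb or more, the share was 24.0% on GGA3, 23.0% on GGA1 and 24.4% on GGA2. Over 1 Mb, it was 6.67% on GGA3, at place 3 from the top, against 6.19% on GGA1. At 2 Mb or more it was 1.33% on GGA3, below the 2.48% of GGA1 and close to the 1.30% of GGA2. There 8 other chromosomes stood higher, and all chromosomes other than GGA3 together had 1.43%.

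**Figure D2:**
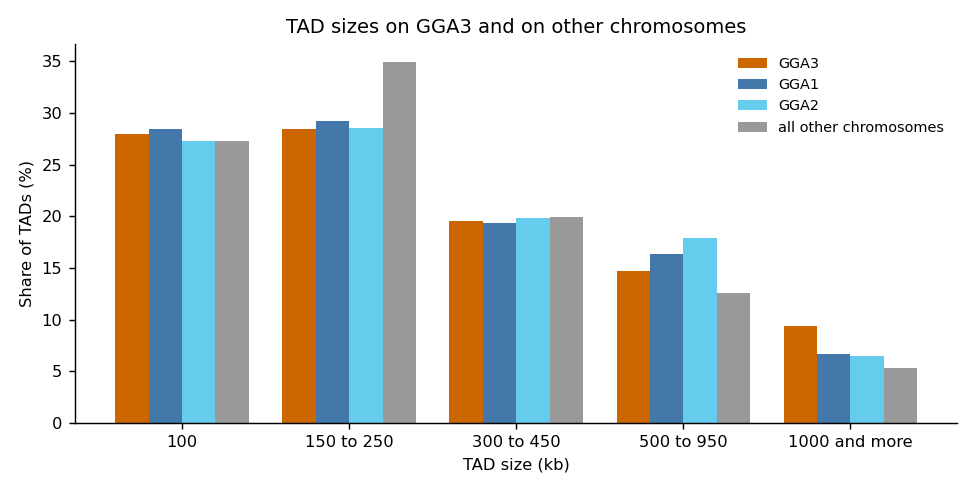
Bars give the share of TADs (%) in 5 size classes (kb) on GGA3 (225 TADs), GGA1 (404), GGA2 (308) and all chromosomes other than GGA3 (2164, GGA1 and GGA2 included). GGA3 stands close to GGA1 and GGA2 up to 450 kb. It is below both at 500 to 950 kb (14.7% against 16.3% and 17.9%). In the class of 1000 kb and more it is above the others, with 9.33%.

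GGA3 had the fewest TADs per length of all 26 chromosomes. It carried 2.02 TADs per Mb over a span of 111.35 Mb, shorter only than those of GGA1 and GGA2, where the span runs from the first position to the last TAD end. GGA1 and GGA2 followed closely, both at 2.06, and the median of the 25 other chromosomes was 2.76. Boundaries, counted as distinct starts and ends of TADs, were also least frequent on GGA3, with 292 or 2.62 per Mb, and here GGA7 came next with 2.71. The share of the span inside TADs was 78.9%, which was above the 77.2% of GGA2 and 78.0% of GGA4 and below the 84.1% of GGA1. In this share GGA3 stood at place 16 from the top among 26 chromosomes. By definition, TADs per Mb equals the share inside TADs divided by the mean TAD size, so its low value restates both measures.

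**Figure D3:**
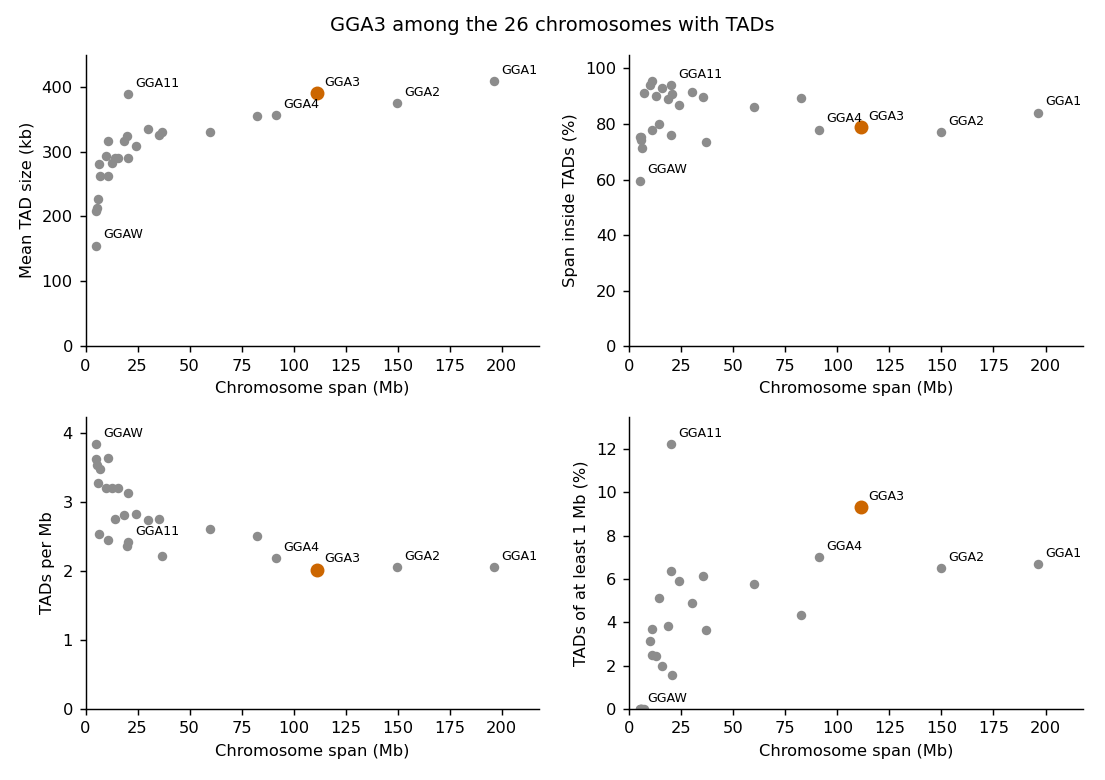
Each point is 1 of the 26 chromosomes with TADs, plotted by its span (Mb) against its mean TAD size (kb), the share of its span inside TADs (%), its TADs per Mb and its share of TADs of at least 1 Mb (%). GGA3, in orange, has the lowest number of TADs per Mb (2.02), next to GGA1 and GGA2 (both 2.06), and its share of large TADs (9.33%) is second to that of GGA11.

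The largest domains were spread over the chromosome and did not form one block. The 21 TADs of at least 1 Mb added up to 30550 kb, or 27.4% of the span, and had a median of 1150 kb. Of them, 11 lay in the first 56.95 Mb and 10 in the last 46.8 Mb. The distance from one to the next had a median of 2.8 Mb and reached 19.7 Mb between the TAD that ended at 45250000 and the one that began at 64950001. In 2 places a pair adjoined directly. One pair met at 24200000 (1050 and 1000 kb), and the other met at 109200000 (1150 and 1000 kb), 2.15 Mb from the end of the span.

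The largest TAD of GGA3 lay at chr3:83200001-87050000 and spanned 3850 kb. It followed a stretch of 100 kb without TADs and adjoined a TAD of 300 kb, after which 900 kb lay outside TADs. The second, at chr3:69250001-71500000 (2250 kb), adjoined no TAD on either side, with 250 kb outside TADs before it and 500 kb after it. The next, at chr3:102350001-104450000 (2100 kb), was embedded in a run and had neighbours of 300 and 350 kb. The fourth, at chr3:5750001-7650000 (1900 kb), came 100 kb after a TAD of 1000 kb. The fifth, at chr3:43450001-45250000 (1800 kb), followed 500 kb without TADs and adjoined a TAD of 500 kb. Both TADs of 1700 kb lay in the second part of the chromosome, at chr3:73650001-75350000 and chr3:89450001-91150000. The first of these adjoined a TAD of 100 kb, and the other stood alone between stretches of 200 and 300 kb.

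The remaining 14 large TADs were between 1000 and 1300 kb long. Those of 1300 and 1250 kb lay at chr3:40850001-42150000 and chr3:700001-1950000. A size of 1150 kb was found at chr3:36500001-37650000, chr3:94250001-95400000 and chr3:108050001-109200000. TADs of 1100 kb lay at chr3:10150001-11250000 and chr3:12800001-13900000, and the TAD of 1050 kb lay at chr3:23150001-24200000. The 6 of exactly 1000 kb began at 4650001, 24200001, 32600001, 64950001, 76150001 and 109200001. Apart from the adjoining pairs and the TADs of 1000 and 1900 kb that lay 100 kb apart, the neighbours of large TADs were below 1 Mb. The 42 TADs next to a large TAD in the list, counted once for each side, had a median of 200 kb, and 15 of them (35.7%) measured 100 kb, against 28.0% of all TADs of GGA3. Of the 21 large TADs, 10 adjoined a TAD on both sides, 8 on 1 side and 3 on neither.

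Most TADs of GGA3 followed each other without a gap. Of the 224 pairs of neighbours, 158 (70.5%) adjoined, against 67.5% on GGA1, 67.8% on GGA2, 72.4% on GGA4 and 89.8% on GGAZ. The median of the 25 other chromosomes was 79.0%. Adjoining TADs formed 67 runs, with a mean of 3.36 TADs. The runs were very uneven, since 35 held a single TAD, while the 12 runs of at least 5 TADs held 137 TADs (60.9%). The longest run of GGA3, with 21 TADs, was shorter than those of GGA1 (28), GGA2 (30), GGA4 (38) and GGAZ (42).

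The run of 21 TADs covered chr3:26450001-35400000 without a gap, 8.95 Mb in all. Its TADs ran from 100 to 1000 kb with a median of 350 kb, and its single TAD of 1 Mb stood between TADs of 100 kb on either side. The next run, with 20 TADs at chr3:400001-5650000, was built differently. Its median was 125 kb, 10 of its 20 TADs measured 100 kb, and TADs of 1250 and 1000 kb also belonged to it. Runs of 13 TADs followed at chr3:5750001-11700000, chr3:95750001-100100000 and chr3:100900001-107100000, with medians of 250, 300 and 250 kb. These 5 runs together held 80 TADs (35.6%) over 30.7 Mb, and they lay in the first 35.4 Mb and the last 15.6 Mb of the span.

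**Figure D4:**
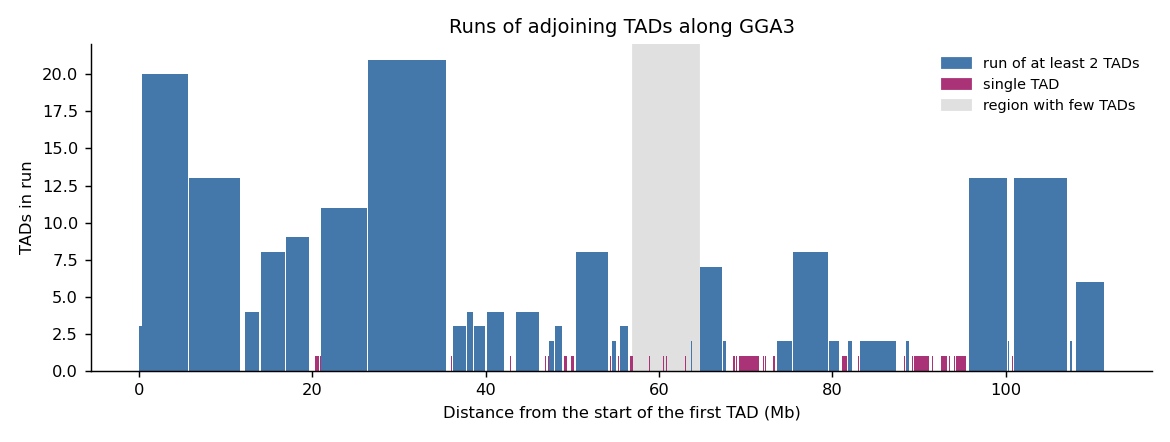
Each bar is a run of adjoining TADs on GGA3, with its width showing the length covered, its height the number of TADs in it, and the horizontal axis the distance from the start of the first TAD (Mb). Purple bars are the 35 single TADs, and the grey band is the region with 6 TADs. The 2 tallest runs, with 21 and 20 TADs, lie before the band, and 20 of the 35 single TADs lie after it.

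Single TADs, which adjoined no other, were small for the most part. Of the 35, 18 (51.4%) measured 100 kb, and their median was 100 kb. Among the 126 TADs with a neighbour on both sides, 26 (20.6%) measured 100 kb and the median was 250 kb. A lower share of TADs of 100 kb with neighbours on both sides than among single TADs was also seen on GGA1 (27.6% and 35.7%), GGA2 (20.8% and 40%), GGA4 (30.8% and 37.5%), GGA5 (22.4% and 47.4%) and GGAZ (25.4% and 33.3%, the latter 2 of 6). The mean size of single TADs on GGA3 was 316 kb despite their median, since 3 of them exceeded 1 Mb. Single TADs came in series. The longest on GGA3 had 8 in a row at chr3:88900001-95400000, where sizes of 100 kb occurred 4 times beside TADs of 1700 and 1150 kb. The next had 7 at chr3:67900001-73400000, around the TAD of 2250 kb. Before 56.95 Mb there were 11 single TADs, and after 64.55 Mb there were 20.

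Sequence outside TADs amounted to 23550 kb on GGA3, in 66 stretches between neighbouring TADs. The chromosome began with a TAD at its first position, as 20 of the 25 other chromosomes did, so no stretch preceded it. Stretches of a single bin were rare, 2 of 66 (3.03%), and the most frequent size was 100 kb, found 19 times. The median was 200 kb, equal to that on GGA2 and above the 150 kb of GGA1. Stretches of at least 100 kb numbered 64, or 0.575 per Mb, against 0.652 on GGA1 and 0.635 on GGA2. At least 500 kb was reached by 17 stretches on GGA3, also by 17 on the longer GGA1, and by 18 on GGA2. At least 1 Mb was reached by 4 on GGA3, 0 on GGA1 and 6 on GGA2, among 24 in the whole list.

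The 3 longest stretches lay close together near the middle of the chromosome, at chr3:60900001-62950000 (2050 kb), chr3:56950001-58800000 (1850 kb) and chr3:58900001-60500000 (1600 kb). The next, at chr3:91550001-92550000 (1000 kb), and 1 of the 2 stretches of 900 kb, at chr3:72300001-73200000, lay in the series of single TADs described above. The other of 900 kb, at chr3:87350001-88250000, lay outside these series, after the TAD that follows the largest one. The stretch of 2050 kb was the fourth longest in the list, after those of 5100 kb on GGAZ, 2550 kb on GGA7 and 2150 kb on GGA4.

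Around these stretches, TADs were nearly absent over 7.6 Mb, at chr3:56950001-64550000. The limits were set after the list had been seen. From the longest stretch, neighbouring stretches of at least 500 kb were joined while at most 2 TADs lay between them. The outer ends of the joined stretches are the limits, so the low number of TADs inside partly restates this rule. Inside were 6 TADs, 5 of 100 kb and 1 of 150 kb, which covered 650 kb or 8.55% of the region. They lay at chr3:58800001-58900000, chr3:60500001-60600000, chr3:60800001-60900000, chr3:62950001-63100000, chr3:63650001-63750000 and chr3:63750001-63850000. Of these TADs, 4 stood alone and the last 2 adjoined each other. The region held 29.5% of all sequence of GGA3 outside TADs, on 6.83% of its span. With it left out, 84.0% of the remaining span lay inside TADs, and the number of TADs per Mb was 2.11, which GGA1 and GGA2 with 2.06 then fell below. Boundaries were then at 2.71 per Mb, with GGA7 slightly lower. Without this region GGA3 therefore kept the lowest place in neither measure, but nothing was left out of the other chromosomes. Leaving out the sparsest part of GGA3 alone raises its values, so these places are not a like comparison. Contact numbers, assembly gaps and read coverage were not used, and their part in the region was not tested.

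Windows of the same length were moved bin by bin over the 19 other chromosomes long enough to hold one. Their lowest share inside TADs was 10.5% on GGA2, 20.4% on GGA7, 21.7% on GGA4 and 23.0% on GGAZ, with a median of 73.7% over the 19. The length was chosen on GGA3, which favours a low value there. A longer span also holds more windows, which favours a low minimum. GGA3 spans 111.35 Mb, while the 19 include spans down to the 10 Mb of GGA19, so their median is not a like comparison. With windows of 5 Mb, the lowest share was 6.00% on both GGA3 and GGA2 and 0% on GGAZ, and GGA1 did not fall below 34.0%. A region nearly free of TADs was thus also present on GGA2 and, in windows of 5 Mb, on GGAZ. On GGA7 and GGA4 the lowest share in windows of 5 Mb was 12.0% and 24.0%.

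The parts of GGA3 on either side of this region differed in how closely TADs followed each other. In the first 56.95 Mb, 136 TADs covered 87.7% of the sequence, and 107 of 135 pairs (79.3%) adjoined. In the last 46.8 Mb, 83 TADs covered 79.5%, and 50 of 82 pairs (61.0%) adjoined. The mean run held 4.69 TADs before the region and 2.52 after it, and boundaries were at 2.90 and 2.48 per Mb. The median TAD size was 250 kb in both parts, with means of 367 and 448 kb. Neither part was uniform. In the first part, 9 of 18 pairs (50%) adjoined from 40 to 50 Mb, and in the second, 18 of 20 (90%) did in the last 10 Mb. The parts were chosen after the list had been seen, and the difference was not tested.

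In consecutive windows of 10 Mb, the share of sequence inside TADs was between 89.0% and 98.5% in the first 40 Mb. It was 71.0% in the next window, 60.5% and 47.0% in the following 2, and between 72.5% and 87.5% from 70 to 110 Mb. Boundaries were most frequent in the first 10 Mb (3.3 per Mb) and least frequent in both windows from 70 to 90 Mb (2.1 per Mb). In the window from 80 to 90 Mb, where the TAD of 3850 kb lies, 3 of 12 pairs (25%) adjoined, and in the first 10 Mb 28 of 30 (93.3%). Few boundaries did not always go with sequence outside TADs. Adjoining TADs share a boundary, so gaps add to the count. In the window from 60 to 70 Mb, 18 TADs gave 2.9 boundaries per Mb, 8 of 19 pairs adjoined and 47.0% of the sequence lay inside TADs. From 20 to 30 Mb, 20 TADs gave 2.4 per Mb, 17 of 21 pairs adjoined and 92.5% lay inside.

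**Figure D5:**
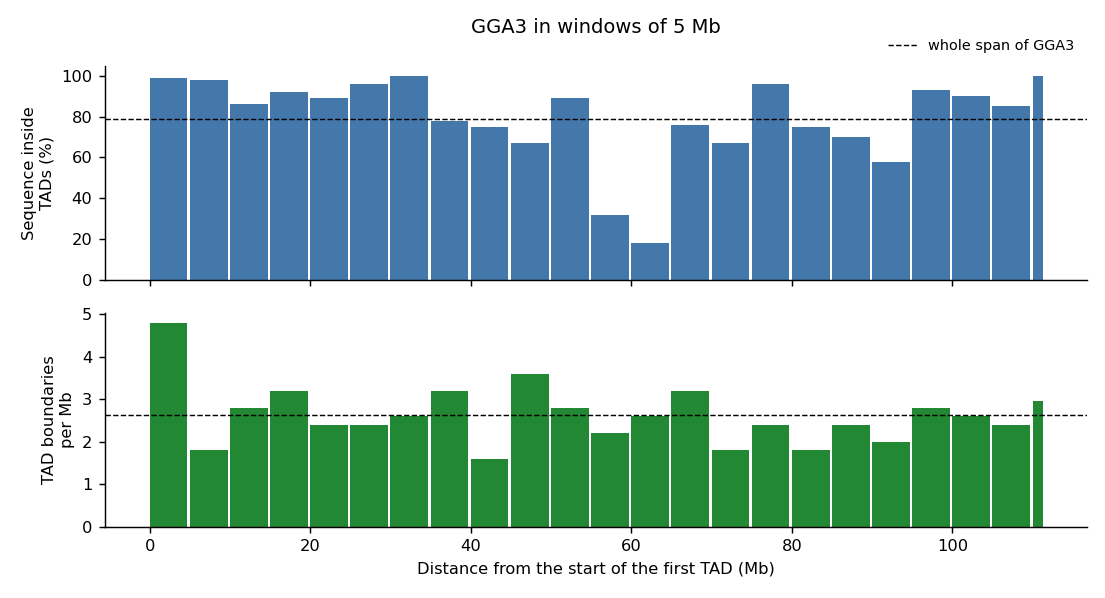
Bars give the share of sequence inside TADs (%, upper panel) and TAD boundaries per Mb (lower panel) in consecutive windows of 5 Mb along GGA3, against the distance from the start of the first TAD (Mb), and the last window is shorter. Dashed lines are the values of the whole span (78.9% and 2.62 per Mb). The share is lowest, 18%, in the window from 60 to 65 Mb, and boundaries are most frequent, 4.8 per Mb, in the first 5 Mb.

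The ends of GGA3 were compared with its interior, and the 2 ends were unlike each other. In the first and last 10 Mb combined, 95.5% of the sequence lay inside TADs, against 75.2% of the interior. The interior includes the region of 7.6 Mb with few TADs, which lowers its share. Windows of the interior away from this region were not alike, with 89.0% to 92.5% from 10 to 40 Mb. From 40 to 50 Mb the share was 71.0%, and from 70 to 100 Mb it was between 72.5% and 81.5%. The last 10 Mb of the span held 92.5% and the last 5 Mb 85.0%. The median TAD size was 200 kb in 51 TADs at the ends and 250 kb in 174 TADs of the interior, a difference of 1 bin, and boundaries were at 2.8 and 2.58 per Mb. The difference in median depended on the width taken, with ends 100 kb below the interior at 5 Mb and equal to it at 20 Mb. The first 5 Mb held 22 TADs with a median of 100 kb, of which 12 (54.5%) measured 100 kb, and boundaries were at 4.8 per Mb. The last 5 Mb held 10 TADs with a median of 300 kb, of which 3 measured 100 kb, and boundaries were at 2.4 per Mb. The beginning of GGA3 alone therefore carried the high number of boundaries.

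The 5 other chromosomes with spans of at least 40 Mb (GGA1, GGA2, GGA4, GGA5 and GGAZ) have 10 such ends. In their outermost 5 Mb, boundaries ran from 2.0 to 4.6 per Mb, with a median of 2.9 and the highest value at the beginning of GGA4. The share of TADs of 100 kb ran from 0% to 47.1%. The first 5 Mb of GGA3 lay above these ranges with 4.8 per Mb and 54.5%, and its last 5 Mb lay inside them with 2.4 per Mb and 30.0%. With ends of 10 Mb, the beginning of GGA3 lay inside the ranges of the other ends, with 3.3 boundaries per Mb (1.8 to 4.2 elsewhere) and 38.7% of TADs of 100 kb (5.56% to 44.4% elsewhere). Its place above the other ends was thus limited to the outermost 5 Mb. In boundaries it rested on 24 against 23 at the beginning of GGA4. From 5 to 10 Mb, GGA3 had 1.8 boundaries per Mb and no TAD of 100 kb. In ends of 10 Mb, sequence was more often inside TADs than in the interior on GGA1 (95.3% against 82.9%), GGA2 (99.8% against 73.7%) and GGA4 (85.0% against 76.0%), and less often on GGA5 (84.8% against 86.6%) and GGAZ (70.3% against 95.3%). The low value on GGAZ came from 1 end, since its first 10 Mb held 100% and its last 10 Mb 40.5%. The stretch of 5100 kb lies in that last part. With ends of 5 Mb, the direction on GGA5 was turned (92.5% against 84.7%).

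The first 5 TADs of GGA3 measured 100, 100, 150, 100 and 100 kb and reached to 600000, with 1 bin outside TADs from 350001 to 400000. The TAD of 1250 kb began 100 kb further on. It was followed by TADs of 150, 100, 150, 100 and 100 kb, and the TAD of 100 kb that came first met the next one of 150 kb at a boundary at 2200000. This boundary is named because the breakpoint of the translocation with GGA24 has been mapped to this place. Boundaries were dense around it, with 24 in the first 5 Mb and the nearest others at 2100000 and 2350000. Whether boundary and breakpoint meet more closely than this density gives was not tested. Since the list joins the contacts of all copies in reference order, a change of TADs at the breakpoint was not measured. The last 5 TADs measured 1000, 350, 450, 250 and 100 kb, adjoined each other and ended at 111350000.

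Across the 224 pairs of neighbours, Pearson's r of log2 size was -0.0024, and Spearman's rho was 0.029. With TADs of at least 1 Mb left out, r was 0.16. Pairs of 1 chromosome share TADs and are not independent, so these values are descriptions only. With all TADs kept, as for the -0.0024 of GGA3, r on the 5 other long chromosomes was between -0.042 and 0.092.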

How the data were processed

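Hi-C had been performed on 2 replicates of HD3 cells. The authors digested chromatin with DpnII, mapped the reads to GalGal5 with Juicer tools (Juicer 1.6 in the submitters' processing notes), combined valid contacts and called TADs with Armatus on the 50 kb heatmap. The authors state a range of γ for the calling, but the γ of each chromosome and any filter on TADs are not given in the sources used here. The deposited values are start and end coordinates in bp, given a second time in the same line with equal values in all 2389 TADs. They are counted from 0 with the end included, so size is end + 1 - start as deposited, and 1 was added to starts and ends for printing.

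Runs are series of TADs in which each start follows the previous end directly. TADs were placed in windows by their midpoints, and boundaries by position. No test was run, since TADs of 1 pooled list are not replicates. Neither a replicate error nor the depth behind a TAD can be given. On 200 simulated TAD lists, the functions recovered the planted median size, share inside TADs, adjoining pairs, runs, stretches and boundaries. They also recovered the lowest share in windows of 5 Mb. All simulated TADs were below 1 Mb, so counts of large TADs were not tested in this way. Neither were ends against interior or correlations between neighbours. The members, measures and regions were chosen with earlier results of these data known. Regions named in the text were all TADs of at least 1 Mb, the 5 longest runs and stretches, the first and last 5 TADs, the windows with most and fewest boundaries, and regions picked once the list was known, as stated beside each. Gene names were not used, because the gene table at hand is on another assembly. Tables were handled in pandas 2.3.3 and numpy 2.4.6 under Python 3.11.15, rank correlations were taken with scipy 1.17.1, and matplotlib 3.10.9 drew the plots.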

Additional observations from a re-analysis of the deposited data

How the results depend on the processing

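Leaving out a replicate was not possible, and no paired analysis was possible because the 2 replicates form 1 group and share a single TAD list. Of 26 alternatives over 7 results, 13 stayed within a factor of 1.5 of the value given. For adjoining pairs, the 95% Wilson interval of the value was used instead. It treats pairs as independent, which they are not, so it served as a yardstick and not as an error. The span counted from the first TAD start was the same by construction, since GGA3 begins with a TAD. Of the 26 alternatives, 6 were added after the data had been seen. With the mean in place of the median, TAD size was 390 kb. With TADs under 150 kb left out, 60.2% of pairs adjoined. The number of stretches was 36 at 200 kb or more, and that of large TADs was 54 at 500 kb and 3 at 2 Mb. These changes follow from the definitions. The difference in median size between ends and interior was -50.0 kb. It was -100 kb with ends of 5 Mb, 0 kb with ends of 20 Mb, -31.7 kb with means and -25.0 kb without TADs under 150 kb, and the cause was not tested. The correlation between neighbours was 0.0089 in adjoining pairs, 0.029 by ranks, 0.16 without TADs of at least 1 Mb and -0.034 without the region with few TADs.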
